A study of Sus scrofa with 20 samples.

Results

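The Western diet was compared with the Heart Healthy diet in epicardial adipose tissue, the fat that lies on the heart muscle, of Ossabaw miniature pigs that all received atorvastatin. The comparison uses 14 of the 20 libraries of the series, chosen by their diet label alone. The 8 WD+S libraries came from pigs that ate food with much saturated fat, cholesterol and refined grain, which the labels call atherogenic, together with the statin. The 6 HHD+S libraries came from pigs that ate food with much unsaturated fat, unrefined grain, fruit and vegetables together with the same drug. Both groups carried the statin and differ in their diet label, and a Western diet group without the drug was not analysed here. Pigs given the Heart Healthy diet alone (HHD, n = 6) shared the fit and are shown as a background. Of these, HHD replicates 3 and 5 held both XIST reads (1437 and 3396) and Y-linked reads (813 and 147), and the fit of the 2 statin groups does not use them. Boars and gilts were both used, and the labels give no age, dose or duration. Replicate numbers follow the order of deposit and only name libraries.

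Atorvastatin is a drug that lowers the synthesis of cholesterol. Cells short of sterol switch on synthesis and uptake through SREBP2, while cells rich in sterol switch on export through the nuclear receptor LXR, whose best known targets are the exporters ABCA1 and ABCG1. Epicardial fat shares its blood supply with the heart muscle and holds fat cells, endothelium, immune cells, and nerve fibres with the ganglia of the cardiac autonomic system, so a dissected piece can differ from the next in all of these. In bulk tissue, fewer cells of a type and less RNA per cell cannot be told apart.

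Summed counts ran from 2749337 to 6543337 per library in these 14, with a median of 3690163. The libraries came from a pool named 1 or 2 in their file names, a mark the labels do not explain. Pool 1 held 4 WD+S and 4 HHD+S libraries, and pool 2 held 4 WD+S and 2 HHD+S libraries. The file names also carry a code (C1, C2R, C3 or C4) and a letter (A or B), equally unexplained. In these 14 libraries letter B and code C4 came together, on HHD+S replicates 3 and 6 and on 0 of 8 WD+S libraries, so for these diet and mark cannot be told apart. Fat cell genes were present throughout, with the adipokine ADIPOQ between 4706 and 9455 counts scaled to a common library total (CPM) in WD+S and between 5935 and 11360 in HHD+S in the second deposited table. Y-linked reads in place of XIST reads marked 4 of 8 WD+S and 2 of 6 HHD+S libraries, so the sexes were not equally divided. HHD+S replicates 5 and 6, the only HHD+S libraries of pool 2, stood apart. Their summed T and NK cell genes were 222.3 and 333.1 CPM where the remaining 12 libraries reached 103.4 CPM at most. Their summed erythroid genes (HBA, HBB and ALAS2) were 14.7 and 69.7 CPM where the others had at least 164.3 CPM. Their summed macrophage genes were 2056 and 3209 CPM, and the remaining 12 libraries reached 1908 CPM at most. Of 22 listed T and NK cell genes 7 had enough reads to be tested, as had 16 rows of 20 listed macrophage genes. Of 14 listed erythroid and platelet genes 3 were tested, none of them a platelet gene.

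No gene of 11366 passed an adjusted p of 0.05 in edgeR, and 0.12 was the smallest adjusted value. With p taken before adjustment and under 0.05, 988 genes (8.69%) differed, of which 671 were higher in WD+S, 5.9% of those tested, and 317 were lower, 2.79%. Both shares are the background for the counts of listed genes over all libraries below. DESeq2 called 10 genes (0.088%), limma-voom with quality weights called 4 (0.0352%) and an edgeR fit of the 2 statin groups called 1 (0.0088%). Of the 671 higher genes, 666 had a positive fold change within each pool, and of the 317 lower genes 286 had a negative one within each pool. These groups of genes were chosen on the pooled libraries, so the shares are a description.

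**Figure D1:**
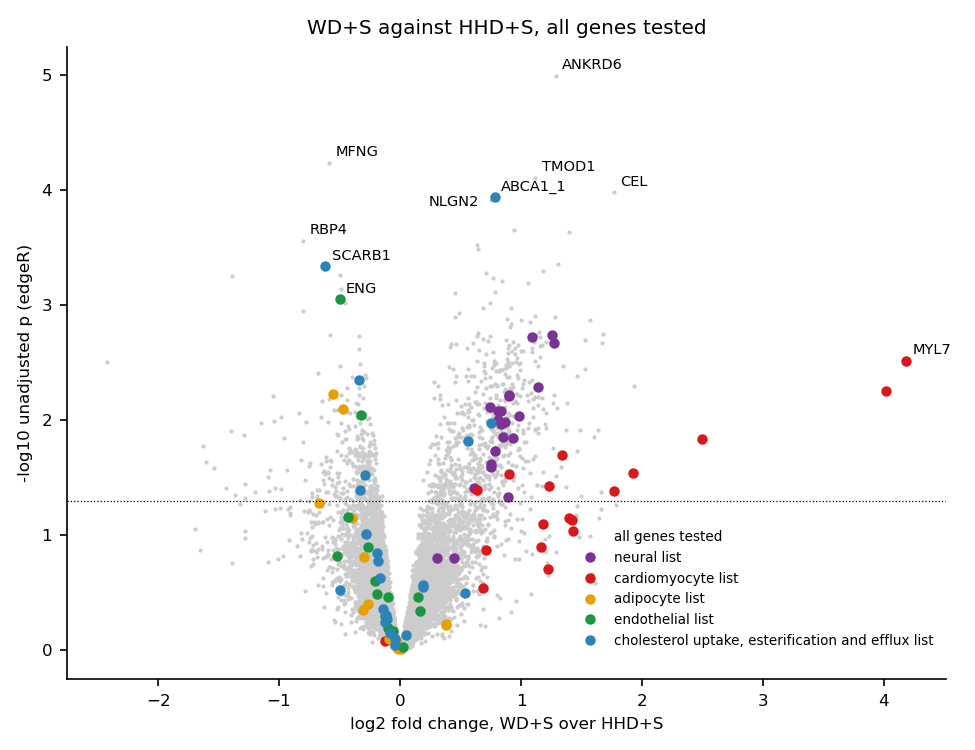
Each grey point is one of 11366 genes, with the log2 fold change of WD+S over HHD+S on the horizontal axis and -log10 of the unadjusted edgeR significance on the vertical axis; coloured points are members of 5 gene lists and the dotted line marks the threshold of 0.05. All 22 neural genes lie to the right, and ABCA1_1 and SCARB1, of the cholesterol list, lie on opposite sides.

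ABCA1, which exports cholesterol, was higher in WD+S, and SCARB1, which takes it up, was lower, though neither passed in edgeR over all libraries. Levels of ABCA1_1 (ENSSSCG00000026173), one of a pair of rows named for the exporter that loads cholesterol onto apolipoprotein A-I, were 104.0 CPM at the lowest, 108 at the median and 118 at the highest in WD+S, against 45.7, 60.4 and 81.4 CPM in HHD+S. Every WD+S library lay above every HHD+S library, and the WD+S libraries were also closer together (SD 5.14 against 12.6 CPM). The log2 fold change was 0.78 (SE 0.17, adjusted p = 0.23 in edgeR), with adjusted p = 0.023 in the fit of the 2 groups, 0.017 in DESeq2 and 0.039 in limma-voom. It was 0.67 in pool 1 and 1.03 in pool 2. HHD libraries ranged from 44.1 to 120.2 CPM and overlapped both groups. The other row, ABCA1_2, held only 3 to 46 reads per library in these groups. In the second table, which has a single ABCA1 row, WD+S libraries lay between 47.9 and 93.0 CPM and HHD+S libraries between 21.6 and 45.6 CPM, again without overlap (log2 fold change 0.88, SE 0.23, adjusted p = 0.34 in edgeR).

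The other exporters were less uniform. ABCG1, which passes sterol to larger lipoproteins, showed a log2 fold change of 0.57 (SE 0.22, adjusted p = 0.41 in edgeR), with opposite signs in the pools of this table, where it held 10 to 48 reads per library. In pool 1, WD+S libraries held 6.39 to 11.6 CPM and HHD+S libraries 3.56 to 4.22 CPM, with no overlap (in this pool 1.78% of all genes were higher without overlap and 2.05% lower) and a log2 fold change of 1.136. In pool 2, WD+S libraries held 5.71 to 8.04 CPM and HHD+S libraries 8.55 and 7.24, and the sign turned to -0.20. The difference between the pools had an unadjusted p of 0.00088 and an edgeR adjusted p of 0.19. The second table does not show the turn: WD+S libraries of pool 2 held 16.3, 13.8, 20.2 and 17.1 CPM there and HHD+S libraries 14.3 and 14.2, and in pool 1 the lowest WD+S library (12.6 CPM) lay above the highest HHD+S library (11.9 CPM). Its overall log2 fold change was 0.61 (SE 0.17, adjusted p = 0.38 in edgeR). ABCG4, a relative found mostly in neural tissue, was higher by 0.76 (SE 0.27, adjusted p = 0.40 in edgeR), and this became -0.08 with the neural score as a term. Of 9 LXR target genes tested, 2 were higher and 0 lower at an unadjusted p under 0.05, with a median of 0.12. Levels of other targets overlapped between the groups: the LDL receptor ligase MYLIP stood at 142.4 ± 16.9 CPM in WD+S (n = 8) and 132.5 ± 22.6 in HHD+S (n = 6), and the apolipoprotein gene APOE at 430.5 ± 119.9 and 462.9 ± 66.0 CPM.

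The lower genes of cholesterol handling bring it in or move it inside the cell. SCARB1 (ENSSSCG00000009759), the receptor that takes cholesterol ester from HDL, stood at 50.8, 63.5 and 82.5 CPM at the lowest, median and highest in WD+S and at 74.0, 95.8 and 121.5 in HHD+S. Of the 8 WD+S libraries, 7 lay under all HHD+S libraries. The log2 fold change was -0.62 (SE 0.15, adjusted p = 0.36 in edgeR), with -0.66 in pool 1 and -0.46 in pool 2. In the second table the groups did not overlap, and DESeq2 called the gene (log2 fold change -0.61, DESeq2 adjusted p = 0.042).

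NPC1 and NPC2, which hand cholesterol out of the lysosome, showed log2 fold changes of -0.34 (SE 0.11) and -0.29 (SE 0.12), with edgeR adjusted p of 0.36 and 0.50, and 7 and 6 of 8 WD+S libraries under all HHD+S libraries. SOAT1, the enzyme that esterifies cholesterol for storage, was named after its values were seen and had a fold change of -0.33 (SE 0.15, adjusted p = 0.55 in edgeR). CEL, an ester lipase best known from pancreas and milk, was low in reads, with 1 to 36 per library, at 1.30, 2.77 and 5.73 CPM in WD+S and 0.30, 0.81 and 1.73 in HHD+S. Its log2 fold change was 1.77 (SE 0.37, adjusted p = 0.23 in edgeR). Over the 23 tested genes of cholesterol uptake, esterification and efflux, 3 were higher and 4 lower at an unadjusted p under 0.05, and the median log2 fold change was -0.12, where that of all genes was -0.01.

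**Figure D2:**
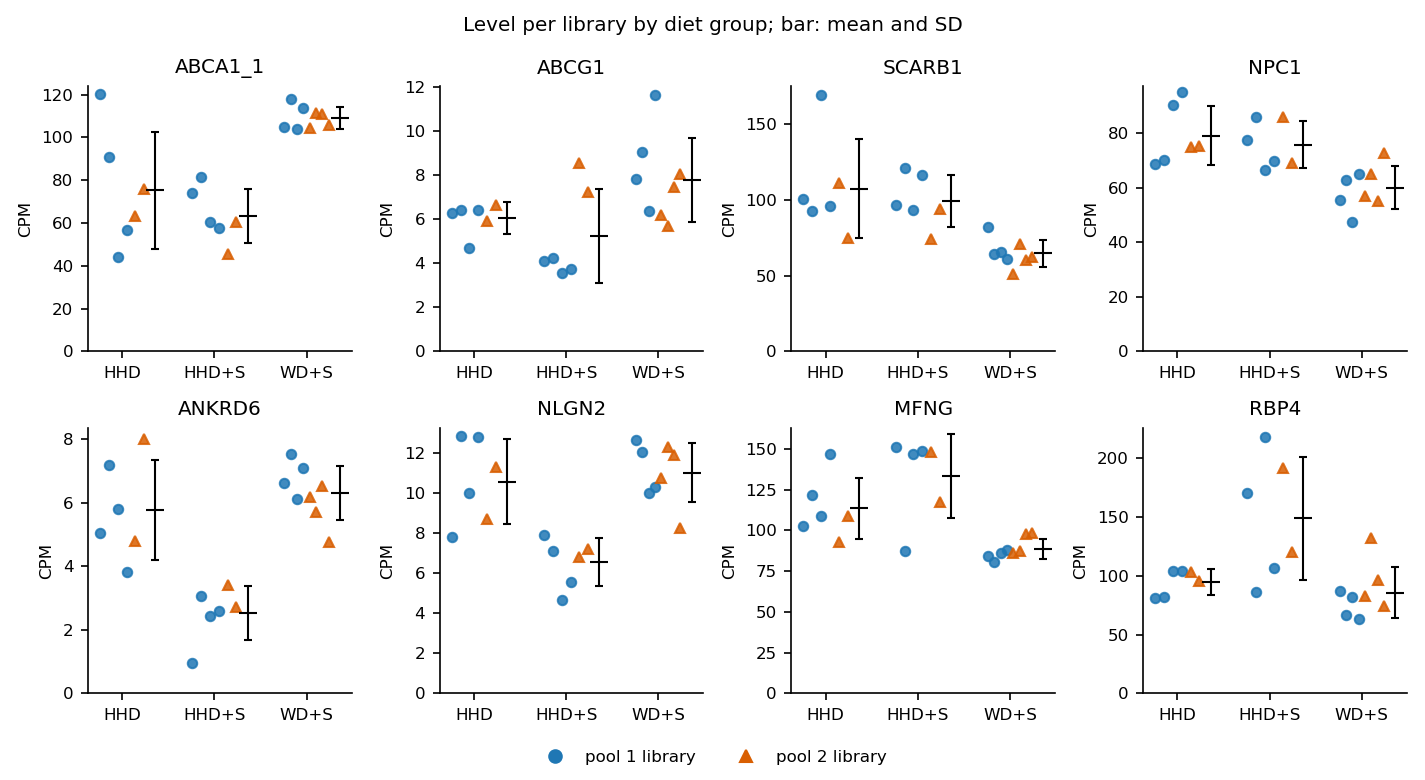
Each point is a library, with CPM on the vertical axis from 0, diet group on the horizontal axis, circles for pool 1 and triangles for pool 2, and bars for the mean and SD of each group. ABCA1_1, ANKRD6 and NLGN2 separate WD+S from HHD+S without overlap, ABCG1 does so in pool 1 only, and MFNG, RBP4, SCARB1 and NPC1 are lower in most WD+S libraries.

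Sterol synthesis genes, the set a statin acts on, had a median near that of all genes over all libraries and medians of opposite sign by pool. Of 22 tested, 0 were higher and 1 was lower at an unadjusted p under 0.05, with a median log2 fold change of -0.06. The lower one was INSIG1, which holds back SREBP processing (-0.39, SE 0.18, edgeR adjusted p = 0.54). In pool 1 the median was -0.24, with 0 higher and 2 lower, where 3.66% of all genes were higher and 2.47% lower. In pool 2 it was 0.26, with 8 higher and 1 lower, where 7.8% of all genes were higher and 6.99% lower. FDPS, which makes farnesyl diphosphate, showed a log2 fold change of -0.28 (SE 0.14), and SQLE, of the first oxygen-dependent step, one of -0.04 (SE 0.20). STARD4, a sterol carrier, had one of 0.72 (SE 0.40, adjusted p = 0.64 in edgeR). The HMGCS1 value was 0.22 (SE 0.25). The HMGCS1, SQLE and FDPS levels of WD+S replicate 1 lay far below those of the other WD+S libraries.

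Genes of neurons were higher in WD+S as a list. All 22 tested neural genes were higher in WD+S, 20 of them at an unadjusted p under 0.05, with a median log2 fold change of 0.85. Of the tested rows, 1 has a copy number in its name. Their summed level was 2468, 6547 and 7351 CPM at the lowest, median and highest in WD+S and 1675, 2925 and 5294 in HHD+S, and 1667 to 4958 CPM in HHD. The lowest WD+S value was replicate 1 and the next lowest replicate 3, at 4122 CPM. The remaining 6 lay between 5767 and 7351 CPM, above every HHD+S library. The list median was 0.67 in pool 1 and 1.06 in pool 2.

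Named by role, CHAT makes acetylcholine and PHOX2A and ISL1 are transcription factors of autonomic neurons. CHAT stood at 10.24, 18.5 and 25.4 CPM at the lowest, median and highest in WD+S and 2.67, 8.53 and 11.9 in HHD+S, with 7 of 8 WD+S libraries above every HHD+S library. Its log2 fold change was 1.26 (SE 0.35, adjusted p = 0.36 in edgeR). PHOX2A and ISL1 showed log2 fold changes of 1.09 and 1.27. The ganglionic acetylcholine receptor subunit CHRNA3 had one of 1.142 (SE 0.37), and the neuronal tubulin TUBB3 one of 0.81 (SE 0.28). Of the 30 synapse and axon rows tested, which stand for 28 genes, 24 were positive and 12 were higher at an unadjusted p under 0.05, 0 lower, and the median was 0.29. CRMP1, which signals growth cone collapse, showed a log2 fold change of 1.11 (SE 0.30) and the postsynaptic scaffold SHANK1 one of 0.92 (SE 0.25). Of 20 ion channel genes, 18 were positive and 2 were higher at that threshold, with a median of 0.44. KCNC4, a voltage-gated potassium channel that is not on that list, stood at 7.83 to 25.2 CPM in WD+S and 4.64 to 14.2 in HHD+S. Its log2 fold change was 1.18 (DESeq2 adjusted p = 0.038).

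Of 12 Schwann and glial genes, 2 were higher at an unadjusted p under 0.05 and the median was 0.03, with -0.26 in pool 1 and 0.56 in pool 2. In pool 1, 4 of 12 were positive, 1 was higher and 1 lower at that threshold, where 3.66% of all genes were higher and 2.47% lower. In pool 2, 12 of 12 were positive, 7 were higher and 0 lower, where 7.8% of all genes were higher and 6.99% lower. The 2 that were higher over all libraries are also found on neurons. NGFR, the low-affinity neurotrophin receptor, stood at 175.4 ± 61.7 CPM in WD+S (n = 8) and 99.3 ± 27.6 in HHD+S (n = 6). The adhesion molecule NCAM1 had a fold change of 0.46 on the log2 scale (SE 0.12). Cardiomyocyte genes were also higher, with 17 of 18 positive and 9 higher at an unadjusted p under 0.05, where 5.9% of all genes were. The list median was 1.29, but levels of the cardiomyocyte genes were scattered. Their sum was 588, 1604 and 8071 CPM in WD+S and 186, 874 and 2010 in HHD+S, so the groups overlapped. Atrial myosin light chain MYL7 was at 0 CPM in WD+S replicate 3 and at 54.2 and 45.95 CPM in replicates 4 and 5, and no HHD+S library exceeded 1.71 CPM. The heavy chain MYH6 and the Z-disc protein ACTN2 differed on the log2 scale by 2.50 (SE 0.94) and 1.34 (SE 0.53), with edgeR adjusted p of 0.41 and 0.45.

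To see how other genes stood beside the neural list, the fit was repeated with the neural score, the mean log2 CPM of the list in each library, as a term, which for the list's own members would be circular. Of the 671 genes higher at an unadjusted p under 0.05, 74 remained so, and of the 317 lower genes 69 remained so. With a cardiomyocyte score instead, 497 and 203 remained, and with a Y-linked level 620 and 274. The 671 genes include 20 members of the neural list and 9 of the cardiomyocyte list. For these the score of their own list is circular, so part of the fall is built in. Under the neural term, 299 genes in all had an unadjusted p under 0.05. Because the neural score itself differs between the diet groups, diet and score share what they account for and cannot be told apart here. Among the 20 higher genes of smallest p the median log2 fold change was 0.82 without the term and 0.44 with it, and all 20 kept their sign. Among the 20 lower genes it went from -0.49 to -0.33, and all 20 kept their sign. Both sets were chosen by smallest p for this contrast in the same libraries, so the kept signs are a description and no support.

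**Figure D3:**
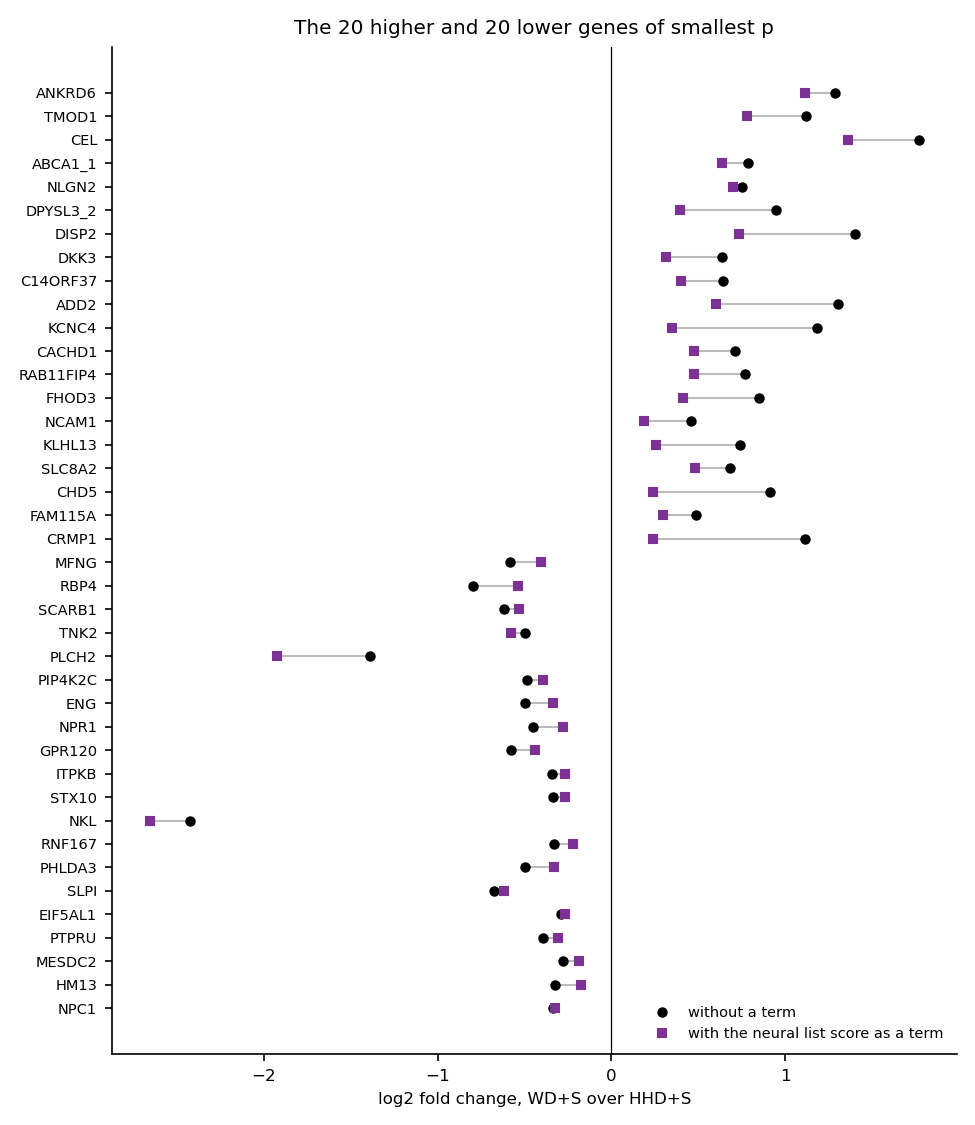
Black points are log2 fold changes of WD+S over HHD+S without a term, and purple squares are those with the neural list score as a term, for the 20 higher and 20 lower genes of smallest p. ANKRD6, ABCA1_1 and NLGN2 move little, while CRMP1, CHD5 and KCNC4 move most of the way to 0.

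Some genes kept most of their difference beside the neural score. ANKRD6 (ENSSSCG00000004322), a modifier of Wnt signalling, held 3 to 41 reads per library and stood at 4.78, 6.36 and 7.55 CPM at the lowest, median and highest in WD+S and at 0.95, 2.66 and 3.42 in HHD+S. The groups did not overlap, and HHD libraries, at 3.81 to 8.003 CPM, all lay above HHD+S. The log2 fold change was 1.29 (SE 0.23, adjusted p = 0.12 in edgeR), and 1.12 with the neural term. NLGN2 (ENSSSCG00000024740), a postsynaptic adhesion protein of inhibitory synapses, stood at 8.25, 11.4 and 12.7 CPM in WD+S and 4.67, 6.97 and 7.93 in HHD+S, with 15 to 75 reads per library. Its log2 fold change was 0.75 (SE 0.16, adjusted p = 0.23 in edgeR), and 0.70 with the term. HHD libraries held 7.81 to 12.9 CPM and reached into the WD+S range. ABCA1_1 was at 0.64 with the term and SCARB1 at -0.53.

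Others kept less of it. KCNC4 went from 1.18 to 0.35, CRMP1 from 1.11 to 0.24 and CHD5, a chromatin remodeller of neurons, from 0.91 to 0.24. DPYSL3_2, a relative of CRMP1 in a row with a copy number, went from 0.95 to 0.40. DKK3, a secreted protein of the Dickkopf family, went from 0.63 to 0.32. Both are DESeq2 calls, with adjusted p of 0.026 and 0.038. DISP2 and ADD2, of the Dispatched family and of the membrane skeleton, were DESeq2 calls as well, with log2 fold changes of 1.40 and 1.31 and reads per library down to 2 and 7.

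In all, 8 genes separated the groups with every WD+S library above every HHD+S library, 0.0704% of those tested, and 0 did so in the other direction. With CPM on plain library totals these counts were 9 and 3, and without the filter on low counts 13 and 2. Besides ANKRD6, ABCA1_1 and NLGN2 they were TMOD1, which caps actin filaments, and 4 that were named after their values were seen. Those 4 were the activin receptor ACVR1B, the neuroligin partner MDGA1, the phosphatase subunit PPP2R2C and the WD repeat gene WDR11. TMOD1 stood at 12.4, 15.95 and 26.7 CPM in WD+S and 6.01, 7.72 and 10.9 in HHD+S (log2 fold change 1.12, SE 0.23, DESeq2 adjusted p = 0.013). The 4 genes showed log2 fold changes of 0.41, 0.45, 0.74 and 0.32, with DESeq2 adjusted p between 0.13 and 0.52. Among the 6685 genes of the second table, 8 (0.12%) separated the groups: ABCA1, the thioesterase ACOT11, the glutamate receptor GRIA1, the metalloprotease ADAM19, the amino acid transporter SLC7A5 and the mast cell protease TPSB2 were higher, and SCARB1 and PPFIA1 lower.

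That table, of other gene models, has rows for 56 of the 75 genes examined in detail, and all 56 had the same sign there. Both tables count the same libraries, and most of the genes were chosen by the main one, so the shared sign is no separate support. In the second table edgeR called 0 genes, with 383 higher (5.73%) and 164 lower (2.45%) at an unadjusted p under 0.05, and DESeq2 called 10, 0.15%. ACOT11 stood at 7.88 to 14.3 CPM in WD+S and 4.91 to 6.40 in HHD+S (log2 fold change 0.96, SE 0.18, DESeq2 adjusted p = 0.012), and GRIA1 at 1.96 to 12.98 and 0.49 to 1.73 CPM. LRRC55, a potassium channel subunit, and the receptor kinase ALK showed log2 fold changes of 1.41 and 1.55, and TUBB6 one of 0.49.

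Among the lower genes, MFNG (ENSSSCG00000030209), a Fringe enzyme that modifies Notch receptors, stood at 80.95, 86.9 and 98.2 CPM at the lowest, median and highest in WD+S and 87.1, 147.3 and 151.0 in HHD+S. HHD+S replicate 2 alone lay in the WD+S range. The log2 fold change was -0.59 (SE 0.12, adjusted p = 0.23 in edgeR, DESeq2 adjusted p = 0.017), and with that library left out the edgeR adjusted p was 0.012. As that library is the one that overlaps, the value without it is no support for the gene. Of 28 Notch rows tested, which stand for 26 genes, MFNG was the only one lower at an unadjusted p under 0.05 and 0 were higher.

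RBP4 (ENSSSCG00000010479), the retinol carrier that fat also secretes, stood at 63.2, 82.3 and 132.0 CPM in WD+S and 85.8, 145.4 and 217.6 in HHD+S (log2 fold change -0.80, SE 0.18, edgeR adjusted p = 0.34, DESeq2 adjusted p = 0.049). HHD libraries, at 80.9 to 104.0 CPM, lay nearer to WD+S than to most HHD+S libraries. Of 18 retinoid rows 3 were higher and 2 lower at an unadjusted p under 0.05, where 5.9% of all genes were higher and 2.79% lower. The lower one beside RBP4 was the retinal reductase DHRS3 (-0.44, SE 0.15). Among the higher ones were the retinoic acid binding protein CRABP1 (0.93, SE 0.38) and the retinoic acid hydroxylase CYP26B1 (0.48, SE 0.21), and CRABP1 was at 0.06 with the neural term.

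Most tested fat cell rows had a negative fold change. Of 16 tested rows, which stand for 15 of 25 listed genes, 13 were negative, where 5890 of all 11366 genes were. At an unadjusted p under 0.05, 2 rows were lower and 0 higher, where 2.79% of all genes were lower. ADIPOQ, FABP4 and LPL were among the listed genes not tested. The median log2 fold change was -0.18, with -0.32 in pool 1, -0.12 in pool 2 and 0.04 with the neural term. PPARG, the master regulator of fat cell identity, stood at 90.3, 126 and 145 CPM in WD+S and 137.8, 166 and 213.5 in HHD+S, with 6 of 8 WD+S libraries under all HHD+S libraries. Its log2 fold change was -0.47 (SE 0.16, adjusted p = 0.38 in edgeR). CEBPA, its partner, was at -0.09 (SE 0.21). GPD1, which makes glycerol phosphate for triglyceride, was at -0.55 overall and at -0.91 in pool 1 and -0.06 in pool 2. The fatty acid receptor GPR120, which is not on the fat cell list, was at -0.58 (SE 0.16, adjusted p = 0.36 in edgeR). Leptin (LEP) was at -0.67 (SE 0.33). The insulin kinase AKT2 was at -0.40 (SE 0.16) and the glucose transporter row SLC2A4_1 at -0.35 (SE 0.16), both of the insulin and glucose list. Of its 23 rows tested, 11 were positive and 12 negative, with a median of -0.02. At an unadjusted p under 0.05, 1 was higher and 2 lower, against 5.9% and 2.79% of all genes. UCP2, of the thermogenic list, was at -0.43 (SE 0.16). Of 9 rows of that list tested, 4 were positive and 5 negative, with 0 higher and 1 lower at that threshold. A row of the fatty acid binding protein FABP3 (FABP3_2) was at -1.11 in pool 1 and 0.38 in pool 2 (edgeR adjusted p of the difference = 0.13). FGF1, a growth factor secreted by fat cells and neurons among others, was higher, at 0.78 (SE 0.23), and at 0.08 with the neural term.

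Lipogenic, fatty acid oxidation and respiratory chain genes had medians of opposite sign in the pools. Medians in pool 1 and pool 2 were -0.44 and 0.44 for 14 lipogenic rows, -0.30 and 0.18 for 18 oxidation genes and -0.20 and 0.28 for 37 respiratory chain genes. Over all libraries, 1 lipogenic gene and 0 genes of the other lists were lower at an unadjusted p under 0.05, and 0 were higher. Of 33 Wnt pathway genes, 4 were higher and 1 lower at that threshold, with a median of 0.08. Of 22 unfolded protein response genes 0 were higher and 3 lower, with a median of -0.08. Over all genes 5.9% were higher and 2.79% lower at that threshold. Of 48 ribosomal protein rows 0 were higher and 0 lower.

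Of 14 endothelial genes tested, 11 were negative, with a median of -0.16. At an unadjusted p under 0.05, 2 of the 14 were lower, where 2.79% of all genes were. ENG (ENSSSCG00000005625), a TGF-beta co-receptor of endothelium, stood at 244, 283 and 333 CPM in WD+S and 323, 403 and 472 in HHD+S, with 7 of 8 WD+S libraries under all HHD+S libraries. Its log2 fold change was -0.50 (SE 0.13, adjusted p = 0.36 in edgeR), PECAM1 was at -0.33 (SE 0.11) and the natriuretic peptide receptor NPR1 at -0.45 (SE 0.12). Of 19 hypoxia and angiogenesis genes 3 were lower and 0 higher at that threshold, against 2.79% and 5.9% of all genes. The 3 were the growth factors PDGFB (-0.59), VEGFC (-0.40) and ANGPT2 (-0.61). ANGPT2 was at -0.03 in pool 1 and -1.36 in pool 2. PLCH2, a phospholipase C, stood out by size at -1.39 (SE 0.35), with -1.91 in pool 1 and -0.38 in pool 2, and the kinase TNK2 was at -0.50 (SE 0.12). Of 25 fibroblast and matrix rows tested, 0 had an unadjusted p under 0.05 in either direction, with COL1A1 at 0.46 (SE 0.28) and COL3A1 at 0.32 (SE 0.27).

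Interferon-induced genes took opposite directions in the pools. These genes make the antiviral state that cells enter on sensing interferon, and the series title names them. In pool 1, 36 of 37 rows, which stand for 36 genes, had a positive fold change, 29 were higher at an unadjusted p under 0.05 and 0 lower, where 3.66% of all genes were higher and 2.47% lower, and the median log2 fold change was 0.79. In pool 2, 1 of 37 was positive, 8 were lower and 0 higher, where 6.99% of all genes were lower, and the median was -0.93. The difference between the pools had an unadjusted p under 0.05 for 34 of 37, against 9.39% of all genes, and edgeR called 0 of 11366 after adjustment (lowest adjusted p = 0.079). Over all libraries 0 were higher and 1, IFI35, was lower.

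The summed interferon list shows the libraries behind this. In pool 1 it ran from 1649 to 2591 CPM in WD+S and from 1141 to 1536 CPM in HHD+S, with no overlap. In pool 2 the WD+S libraries stood at 1708, 1137, 3727 and 8037 CPM and the HHD+S libraries at 7075 and 8559 CPM. All HHD libraries lay between 955 and 1111 CPM, below every library with the statin. Thus the 2 HHD+S libraries of pool 2 and WD+S replicate 8 were highest. Among the statin libraries of pool 2 the levels also went with the code in the file names. The low WD+S libraries, replicates 5 and 6, carry C2R, the higher ones, replicates 7 and 8, carry C3, and the HHD+S libraries carry C3 and C4. As no HHD+S library of pool 2 carries C2R, code and diet cannot be told apart there. Outside these libraries, HHD+S replicate 3 of pool 1 carries C4 and had 1536 CPM. HHD replicate 5 of pool 2 carries C3 and had 1111 CPM. In pool 1, WD+S replicate 4 and HHD+S replicate 4 both carry C2R and had 2591 and 1203 CPM.

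RSAD2 (ENSSSCG00000008648), an antiviral enzyme, showed the same libraries. In pool 1 it stood at 36.5, 23.6, 48.9 and 52.3 CPM in WD+S and at 5.79 to 8.25 in HHD+S, and edgeR within pool 1 called it (log2 fold change 2.50, edgeR adjusted p = 0.0012), its only call there (0.0088% of those tested). In pool 2 it stood at 21.2, 8.35, 61.9 and 139.9 CPM in WD+S and at 127.5 and 120.1 in HHD+S, a log2 fold change of -1.09. MX1, which traps viral nucleocapsids, was at 0.95 in pool 1 and -0.78 in pool 2, and OAS1, which activates RNase L, at 0.79 and -0.95. The chemokine CXCL10 was at 1.05 and -2.50, with 200.8 and 372.3 CPM in the HHD+S libraries of pool 2 and 165.3 CPM in WD+S replicate 8.

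**Figure D4:**
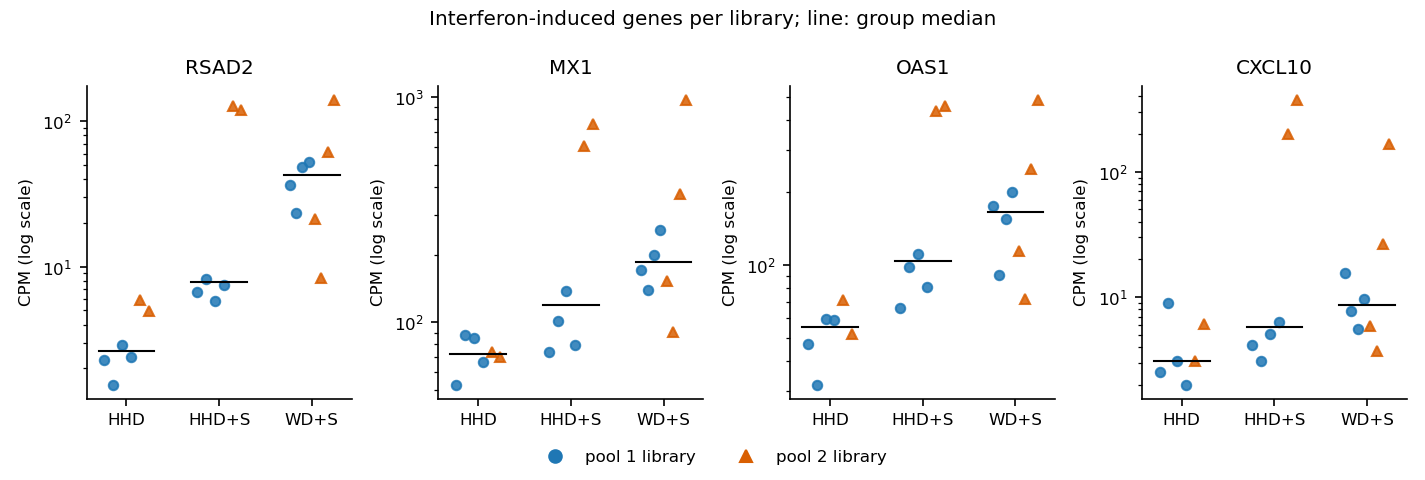
Each point is a library, with CPM on a log scale, diet group on the horizontal axis, circles for pool 1, triangles for pool 2 and a line at each group median. In pool 1 all WD+S libraries lie above all HHD+S libraries for RSAD2 and MX1, and in pool 2 both HHD+S libraries lie above at least 3 of the 4 WD+S libraries for each gene.

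Immune cell genes of pool 2 were lower in WD+S than in the 2 HHD+S libraries, while few passed in pool 1. At an unadjusted p under 0.05, 7 of 7 T and NK cell rows and 12 of 16 macrophage rows were lower in pool 2. So were 11 of 13 MHC class I and immunoproteasome rows, where 6.99% of all genes were lower. In pool 1 the counts of higher rows were 0, 0 and 1, where 3.66% of all genes were higher. Summed T and NK cell genes of HHD+S were 222.3 and 333.1 CPM in pool 2 and 28.0 to 39.4 CPM in pool 1. Those of WD+S were 22.2 to 103.4 CPM in pool 2 and 31.3 to 71.1 CPM in pool 1. Medians in pool 1 and pool 2 were 0.23 and -2.45 for T and NK cells, 0.30 and -0.90 for macrophages and 0.18 and -1.21 for MHC class I. T cell co-receptor CD8A was at 20.5 and 34.7 CPM in the HHD+S libraries of pool 2 and up to 4.01 CPM in those of pool 1, while WD+S replicate 8 held 12.6 CPM. The chemokine CCL5 was at 50.1 and 120.1 CPM in the former and up to 8.23 CPM in the latter, and at 18.0 and 23.9 CPM in WD+S replicates 7 and 8. IL7R, of T cells, the class I chain SLA-5 and the complement gene C1QA showed log2 fold changes of -0.80, -0.73 and -0.69 over all libraries and -0.21, 0.20 and 0.38 in pool 1. Their part in the interferon difference was not tested. With the 2 HHD+S libraries of pool 2 left out, a choice made with the data in view, 32 of 37 interferon rows were higher at an unadjusted p under 0.05, where 6.27% of all genes were (2.02% were lower), and the median was 1.19.

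**Figure D5:**
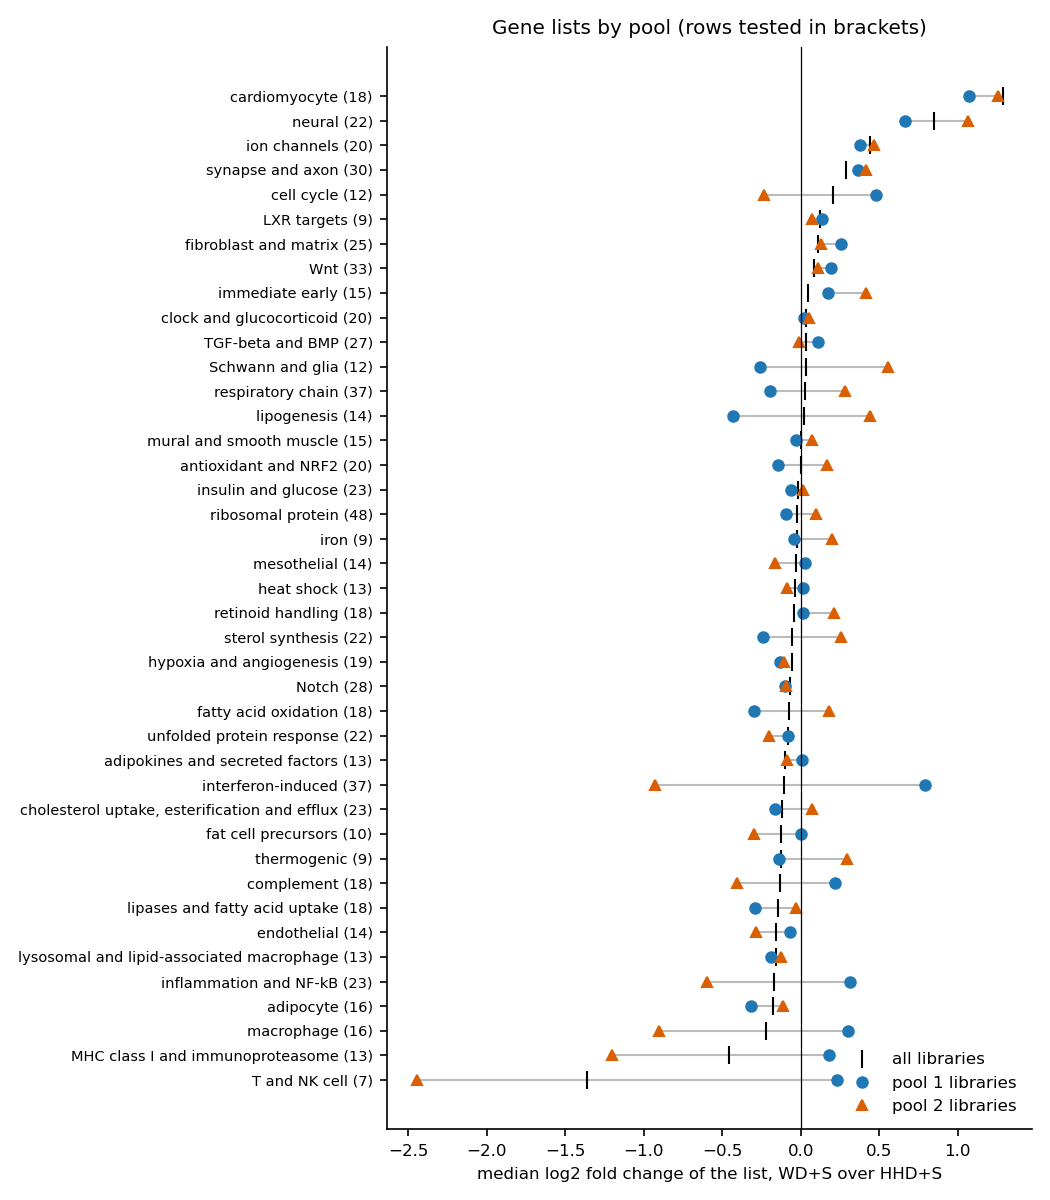
Gene lists are on the vertical axis with the number of rows tested, and the horizontal axis is the median log2 fold change of WD+S over HHD+S in pool 1 (circles), pool 2 (triangles) and all libraries (bars). Neural and cardiomyocyte lists lie to the right in both pools, whereas the interferon, T and NK cell, macrophage and MHC class I lists lie right of 0 in pool 1 and left in pool 2.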

How the data were processed

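Libraries were assigned to groups by the diet label. The labels' protocols describe DNase-treated RNA from tissue with an RNA quality minimum and the TruSeq v2 kit, which marks no strand, so antisense or overlapping genes share reads. The tools named in the submitters' processing notes are bcl2fastq 2.17.1.14 and, as genome, Sscrofa10.2. For aligner and counter, the name is not given in the sources used here. Per library, the authors deposited whole-number counts of unique exon reads for 22861 rows, the main table, and counts of unique gene reads for 10157 names, the second table. The authors' deposited RPKM values entered no test. Of the rows, 6101 had an ID only, of which a reference list named 1069, and 2891 carried a copy number, so their reads may be split between rows.

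Tests used edgeR 4.0.16 in R 4.3.3 (TMM scaling, quasi-likelihood F test, minimum count 10, minimum total 15) on one fit of all 20 libraries, which left 11366 rows, or 6685 in the second table. Adjustment was by the Benjamini-Hochberg method over all rows tested. DESeq2 1.42.0 and limma-voom (limma 3.58.1) were alternatives. DESeq2 kept its default filter, which can leave rows of low mean count out of the adjustment, so its adjusted values have another basis. Standard errors are fold change over the square root of F. CPM are on TMM-scaled totals and are given as mean ± SD or as lowest, median and highest. Scripts were tested on simulated data. Libraries with different title numbers were treated as separate animals, and p-values measure the spread between them, which may be technical in part. Genes were named by smallest p, by a call in any tool, by lists and by size, and exceptions are stated. Genes and lists were chosen with earlier results of these data known, so they are no independent support. No reference genome was used and positions are not given.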

Additional observations from a re-analysis of the deposited data

Results flagged for a closer look

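In 150 groups of library values, 14 had a library far from the rest of its group, where chance gives about 1 in 20 groups. The groups share libraries and their genes were chosen, so they are not independent and the count is no test. Of the 14, 8 came from WD+S replicate 1. That library was lowest among the WD+S libraries for ADD2 at 6.93 CPM, KCNC4 at 7.83 CPM, ISL1 at 1.51 CPM and NCAM1 at 133.1 CPM. It was also lowest for the sterol synthesis genes HMGCS1 at 82.5 CPM, SQLE at 33.1 CPM and FDPS at 50.6 CPM, and highest for LEP at 31.3 CPM, where the other WD+S libraries lay at 9.71 to 13.2 CPM. Its summed neural list was 2468 CPM and its summed sterol synthesis list 940.7 CPM, both the lowest of the group.

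HHD+S replicate 3 was lowest for LEP at 6.23 CPM and for WDR11 at 32.3 CPM. HHD+S replicate 2 was highest for HMGCS1 at 278.1 CPM. HHD+S replicate 1 was lowest for ANKRD6 at 0.95 CPM. WD+S replicate 5 was lowest for TNK2 at 103.3 CPM, and WD+S replicate 7 highest for DHRS3 at 385.2 CPM.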

How the results depend on the processing

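No paired analysis was possible because replicate numbers follow the order of deposit and mark no shared animal or litter. The number of genes called by edgeR (0) was 1 in the fit of the 2 groups, 1 in pool 1 alone, 10 in DESeq2 and 4 in limma-voom, and 0 to 1 with each library left out. Genes at an unadjusted p under 0.05 (988) numbered 1682 in pool 2 alone, 299 with the neural score and 725 to 1408 with each library left out. Genes whose groups do not overlap (8) numbered 15 without the expression filter, 12 with CPM on library totals, 435 in pool 1 alone and, where 4 libraries face 2, 2924 in pool 2 alone. In the second table DESeq2 called 10 where edgeR called 0.

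Over 75 genes and 28 settings, 2021 of 2088 values kept direction and side of the threshold, and 50 turned direction, in 19 genes. Log2 fold changes that turned, by setting, were as follows. In pool 1 alone, HMGCS1 was -0.069, CXCL10 1.05, OAS1 0.79, SLA-5 0.20, CD8A 0.11, CCL5 0.56 and C1QA 0.38. In pool 2 alone, ABCG1 was -0.20, APOE 0.072, SQLE 0.43, FDPS 0.12, FABP3_2 0.38, RSAD2 -1.09 and MX1 -0.78. With the neural score, ABCG4 was -0.076, HMGCS1 -0.42, CEBPA 0.18 and MX1 -0.17. TUBB3 was -0.079, but it is a member of the list behind the score, so this value shows nothing. With the Y-linked level, RSAD2 was -0.16 and MX1 -0.25. With the cardiomyocyte score SQLE was 0.049, with limma-voom SQLE was 0.063 and OAS1 0.092, and with a pool term OAS1 was 0.013. Without letter B libraries, MYLIP was -0.013 and OAS1 0.18. Without the HHD+S libraries of pool 2, CXCL10 was 2.72, OAS1 1.11, SLA-5 0.17, CD8A 0.54, CCL5 1.05, C1QA 0.22 and COL3A1 -0.004. With each library left out in turn, the values ran from -0.11 to 0.16 for SQLE, -0.35 to 0.74 for RSAD2, -0.57 to 0.56 for MX1 and -0.46 to 0.28 for OAS1. The cause was not tested.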
